A study of Mus musculus with 7 samples.

Results

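Primary Sertoli cells of 4-week-old mice lacking ERM were compared with those of wild-type mice of the same age. The comparison rests on 2 of the 7 samples of the series, 1 array for each genotype, chosen by their titles. ERM is the product of Etv5, a transcription factor of the ETS family, and the study asks how germline stem cells are lost in mice without it. The other samples are ERM knockout Sertoli cells at 10 weeks, the mouse TM4 line without and with transfection of ERM, and whole testis of both genotypes at 4 weeks. No wild-type Sertoli array at 10 weeks is in the series. Age and genotype therefore cannot be told apart where the 10-week array is set beside wild type. The wild-type and knockout Sertoli groups at 4 weeks carry no further treatment in the labels. The sources used here do not give the strain, the deleted part of the gene, the number of animals pooled or the days in culture. Of 45101 probe sets on the array, 34945 were annotated to exactly 1 gene, and 28381 of these reached the detection floor on at least 1 array of the pair. This left 15860 genes with a ratio.

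Sertoli cells are the somatic cells that line the seminiferous tubule, surround the germ cells and supply them with growth factors, lactate and iron. They form the blood-testis barrier through their tight junctions and make the niche in which spermatogonial stem cells renew. They also respond to bacterial products and cytokines with chemokines and acute phase proteins. ETS factors bind DNA at sites with a GGAA core. The PEA3 group, to which Etv5 belongs, acts downstream of FGF and GDNF signalling.

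Arrays were set to a common trimmed mean of 500, taken from the 2nd to the 98th percentile of each, and readings under 100 were raised to that floor before a ratio was taken. Ratios are knockout over wild type, so a negative log2 ratio is a lower reading in knockout. Each gene is given by its brightest probe set unless others are named. Where 1 array lay below the floor, the fold is a bound and is written as "at least", and its log2 ratio is called a bound, the true ratio being at least as far from 0. With 1 array per genotype there is no replicate check, no test and no interval over animals or cultures. The only spread that could be measured is that between probe sets of the same gene on this pair. Its SD in log2 units was 0.37 for probe sets reading up to 500 on the brighter array, 0.30 from 500 to 2000 and 0.16 above that. It says nothing about how other preparations would vary.

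The deposited trimmed means of the wild-type and knockout arrays were 298.7 and 287.8, and 73.8% and 72.0% of probe sets reached the floor. Across the 15860 genes the log2 intensities of the pair had a Pearson correlation of 0.957, given as a description, since genes are not replicates. The knockout array stood apart in its 18S ribosomal RNA controls. The 5′ control read 4551 on it, against 349 in wild type and 236 to 352 on the other arrays of the table, and the middle and 3′ controls read 3037 and 1966 against 297 and 666. The 3′ control for pyruvate carboxylase read 1856 against 514, while its 5′ control read 206 and 187. The Gapdh controls, read for RNA integrity, gave 3′ over 5′ values of 0.829 in knockout and 0.777 in wild type. The part of these controls in the differences given here was not tested.

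Of the 15860 genes, 504 read at least 2-fold lower in knockout, which is 3.18% of those compared, and 108 read at least 2-fold higher, which is 0.681%. These 2 shares are the ones to set beside the count of each gene list below. With 0.681% of all genes higher, a short list without a higher member is near that share. The lower side held 66 genes at 4-fold or more and the higher side 11. The middle of the distribution hardly moved, with a median log2 ratio of -0.02, 8220 genes below 0 and 7640 above it. The excess on the lower side was present at most signal levels. Genes whose brighter array read 200 to 500 were lower in 4.55% and higher in 0.711% of cases, and those at 500 to 1000 in 4.59% and 0.614%. Above 2000 the shares were 1.83% and 1.34%. The higher genes farthest out rest on 1 detected probe set each. Vil1, a microvillus protein, read 141 in wild type, 18037 in knockout and 169 on the 10-week knockout array, and Sox1, a neural factor, 1.67, 5941 and 1.71 (both named after their values were seen). Of the ratios past 2-fold, 87 on the lower and 13 on the higher side were bounds. On the wild-type array 2 probe sets, of Nop14 and Ddah1, read below 10 while the other 4 arrays of the table read 500 or more. No other array had such a lone low reading.

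**Figure D1:**
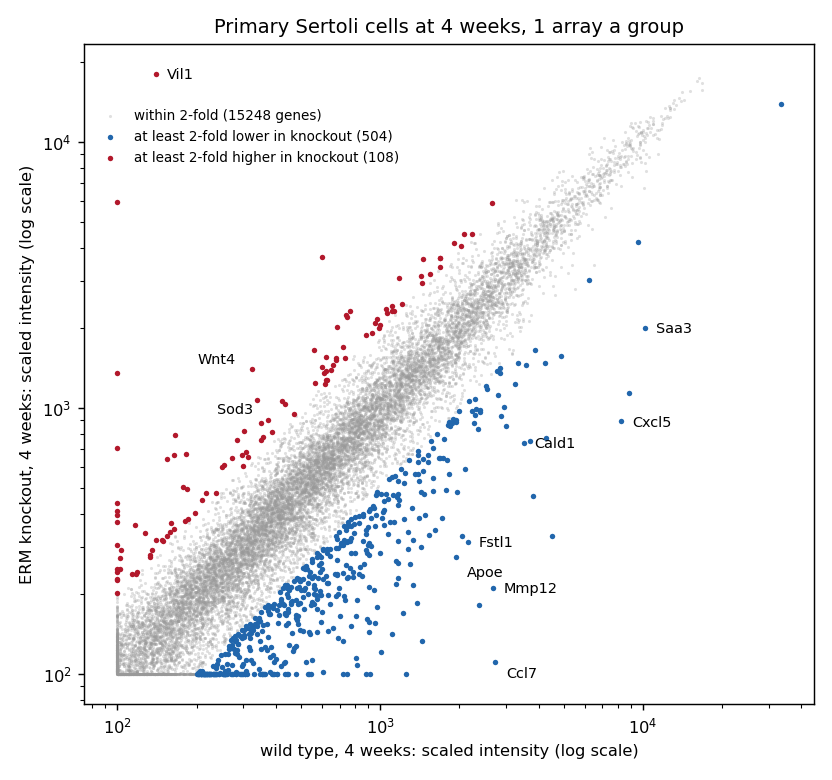
Scaled intensity of 15860 genes in primary Sertoli cells at 4 weeks, wild type on the horizontal and ERM knockout on the vertical axis, both on a log scale and floored at 100, with 1 array a group. The 504 genes at least 2-fold lower in knockout (blue) outnumber the 108 at least 2-fold higher (red), and Ccl7, Mmp12, Cxcl5 and Saa3 lie far below the diagonal.

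Etv5 itself was not lower on the knockout array. Its brightest probe set read 710 in wild type and 910 in knockout, a log2 ratio of 0.36. Its other probe sets gave 0.17 and 0.07. All 3 lie within 2-fold, so Etv5 did not separate the array labelled knockout from wild type. A probe set outside the deleted part, which the sources do not give, checks nothing. Directions below are therefore those between the libraries labelled ERM knockout and wild type.

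The neighbours of Etv5 on chromosome 16 were read to see whether the locus as a whole differed. Among the 20 nearest measured genes, 10 on each side, the median log2 ratio was -0.03. None was at least 2-fold higher, and 1, known only by a clone name, was 2-fold lower. The 3 nearest below it were Tmem41a, Senp2 and Tra2b, at 0.77, -0.10 and -0.16. On the other side were Tbccd1, Dnajb11 and Ahsg, at -0.02, 0.03 and 0.08. Tmem41a, at 743 in wild type and 1269 in knockout, was the highest of the 20 and lies within 2-fold.

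The Sertoli label was checked against marker genes, which were present on both arrays. Sox9, which directs Sertoli cell fate, read 5220 in wild type and 6439 in knockout. Wt1, a zinc finger factor of Sertoli cells throughout life, read 3802 and 3689, and Clu, the secreted chaperone clusterin, 16016 and 17012. The 3 genes lie within 2-fold. Transferrin was not used here, because its probe set names more than 1 gene. Fshr, the FSH receptor, was dim at 139 and 170, and Amh, the hormone of immature Sertoli cells, read 322 and 381.

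Across 22 compared genes for Sertoli cell secreted and surface proteins, 18 were above 0, the median log2 ratio was 0.20, 2 were at least 2-fold higher and 1 was at least 2-fold lower. Summed intensity of the list was 103219 in wild type and 119006 in knockout. Espn, an actin bundler of the junctions that hold spermatids, read 140 and 320, 2.28-fold higher. Gdnf, the growth factor that sustains spermatogonial stem cells, read 238 and 480, 2.02-fold higher. Both fell short of 2-fold under another setting. Gdnf had a log2 ratio of 0.96 on the intensities as deposited, and Espn 0.68 with a floor of 0.4 times the trimmed mean. Inha, the inhibin alpha subunit that restrains FSH, read 4717 and 7405, a log2 ratio of 0.65. Abcb1b, a drug efflux pump, went the other way, from 237 to below the floor, but its further probe set stood at a log2 ratio of 0.21.

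Of 12 nuclear factors of Sertoli cells, 2 were lower by at least 2-fold and none was higher by as much, with a median of 0.13, or -0.00 on the intensities as deposited. Gata4, a regulator of somatic gonad genes, read 395 in wild type and 752 in knockout, with its 2 probe sets at log2 ratios of 0.93 and 0.98. Dmrt1, which keeps Sertoli cells male and also acts in spermatogonia, read 395 and 183, 2.16-fold lower. Nr4a1, an orphan nuclear receptor that responds quickly to stimuli, read 383 and 126, 3.03-fold lower. Of the 12, 6 lay above 0 and 6 below.

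Marker genes of other cell types were also detected. Some of their lists differed between the arrays, while others had medians near 0, and which cells carried this RNA was not tested. In bulk RNA, fewer cells of a type and less RNA per cell cannot be told apart. Macrophage and myeloid markers were lower: 8 of 19 compared genes were at least 2-fold lower and none was higher, against 3.18% and 0.681% of all genes. Their median was -0.90, and their summed intensity was 21111 in wild type, 11114 in knockout and 19711 on the 10-week knockout array. Cd53, a tetraspanin of leukocytes, read 1006 and 121, 8.29-fold lower. Ctss, the protease cathepsin S, read 3801 and 468, 8.12-fold lower, and Cd68, a lysosomal protein of macrophages, 1034 and 362, 2.85-fold lower. The defining markers Adgre1 and Csf1r lay within 2-fold. Adgre1, which encodes F4/80, read 451 and 294, and Csf1r, the receptor for the macrophage growth factor, 2561 and 1618, with log2 ratios of 0.03 and 0.00 on its further probe sets. The brightest probe set of Ptprc, the leukocyte antigen CD45, lay below the floor on both arrays, as did Itgam and Cx3cr1, and a dimmer Ptprc probe set read 196 and 41.3.

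Fibroblast and interstitial genes had a median of -0.60 over 10 compared members, with 2 at least 2-fold lower and a summed intensity of 11878 in wild type and 6580 in knockout. Dcn, the collagen-binding proteoglycan decorin, read 6207 and 3027, although its further probe set stood at a log2 bound of -0.05. Lum, Thy1, Postn and Fap lay below the floor on both arrays. Peritubular and smooth muscle genes showed no common direction, with a median of 0.10 over 14. Of these, 1 was at least 2-fold lower, Cald1 at 3509 in wild type and 741 in knockout. Another 1 was at least 2-fold higher, Myl9 at 2087 and 4515. Acta2, their smooth muscle actin, read 5799 and 7409, and Myh11, the smooth muscle myosin, 329 and 347.

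Leydig and steroid synthesis genes had a median of 0.30 over 10 compared members, with 1 past 2-fold in each direction. Cyp17a1, the enzyme that turns progestins into androgen precursors, read 117 in wild type and 364 in knockout, 3.11-fold higher. Hsd3b1, an earlier enzyme of the pathway, read 265 and 188. Hsd11b1, which regenerates active glucocorticoid, read 516 and 248, 2.08-fold lower. Endothelial genes had a median of -0.04 over 9, none past 2-fold. Lymphocyte genes had 0.08 over 11, which turned to -0.50 under a higher floor, 0.4 times the trimmed mean. Within these, Pecam1, an adhesion molecule of endothelium, was below the floor on both arrays, and Cd3e, of the T cell receptor complex, read 283 and 134. Hba-a1, an alpha globin, read 728 and 318 within an erythroid list whose median was -0.29 over 4. Granulocyte and mast cell genes (0.02 over 10) and epididymal genes (-0.22 over 6) had 1 and 0 members past 2-fold.

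Germ cell genes were detected on both arrays as well. Meiotic spermatocyte genes had a median of -0.56 over 26 members, 23 of them below 0. Of the 26, 1 was at least 2-fold lower (3.85%), near the 3.18% of all genes. Their summed intensity was 40097 in wild type, 27326 in knockout and 5280 on the 10-week knockout array. Ddx4, an RNA helicase of the germ line, read 3497 and 2124. Spermatid genes were on the other side, with a median of 0.25 over 22 members and 1 at least 2-fold higher. That member was Prm2, a protamine that packs sperm DNA, at 1439 and 2955. Of 11 genes of differentiating spermatogonia, 2 were at least 2-fold lower: Stra8, a retinoic acid target that starts meiosis, at 867 and 259, and Esx1, a homeobox gene of the X chromosome, at 600 and 171. The 17 compared genes of undifferentiated spermatogonia had a median of -0.13, or 0.08 with a floor of 0.4 of the trimmed mean, and 1 was at least 2-fold lower (5.88%). Germ cell lists therefore lay on both sides of 0, and their part in other results was not tested.

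Genes measured by several probe sets give the only repeat within the pair. Probe sets with the suffix _x_at, which can match several transcripts, were not counted here as repeats. Of 6677 genes with 2 or more other detected probe sets, 35 were at least 2-fold lower on all of them, which is 0.524%, and 4 were at least 2-fold higher on all, which is 0.0599%. The requirement removed many calls. Of the 504 lower genes, 220 had a further detected probe set. In 39 of these every further probe set was also past 2-fold, in 115 all went the same way without all reaching it, and in 66 at least 1 did not go the same way. Of the 108 higher genes 34 had a further probe set, and the 3 counts were 6, 18 and 10. The 39 and 6 exceed the 35 and 4 by genes whose brightest probe set is itself _x_at, 4 lower and 2 higher.

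Several of the repeated lower genes belong to the cytoskeleton, the matrix and cell adhesion. Fstl1, a secreted glycoprotein that binds BMPs, read 2149 in wild type and 315 in knockout, with its 2 probe sets at log2 ratios of -2.77 and -2.72. It read 2133 on the 10-week knockout array, near the 2149 of 4-week wild type. Cald1, the actin-binding protein caldesmon, read 3509, 741 and 3355 on the wild-type, 4-week and 10-week arrays, and its 3 probe sets ranged from -2.24 to -1.73. Msn, moesin, which ties actin to the membrane, read 1718, 387 and 1182, with -2.15 and -2.14. Thbs1, a matrix glycoprotein that activates TGF beta, read 733, 190 and 1582. The 4-week knockout array was thus the low array of the 3 for each of these genes.

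Others belong to inflammation. Clec4n, the receptor dectin-2 of myeloid cells, read 1216 in wild type and 169 in knockout and had the lowest median of the set, with a log2 ratio of -2.84 on this probe set and a bound of -3.38 on the other. Il1rn, the antagonist of the interleukin 1 receptor, read 1146 and 218, with its 3 probe sets from -2.45 to -1.34. Ptgs2, the inducible cyclooxygenase, read 808 and 115, with -2.82 and -1.88. Saa1, an acute phase apolipoprotein, went from 386 to below the floor. Ccl9, Ifi44l and Serpinb9, a chemokine, an interferon-inducible gene and a granzyme inhibitor, were also among the 15 lowest, at log2 medians of -2.17, -1.93 and -1.90, each taken with 1 probe set at its bound.

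Metabolic and surface genes made up the rest of the 15 lowest. Slc7a11, the cystine importer that feeds glutathione synthesis, read 543 in wild type and just below the floor in knockout, at least 5.43-fold lower, with a log2 ratio of -2.21 on its further probe set. Glrx, a glutathione-dependent oxidoreductase, read 2098 and 590, 3.56-fold lower. Cd24a, a surface glycoprotein, read 495 and 147, and Ces1d, a carboxylesterase, went from 405 to below the floor. Xist, the RNA that silences an X chromosome in females, also passed on 2 probe sets. It read 488 and 165 on the brighter and 362.5 and 21.0 on the dimmer, and the 10-week knockout array read 216 and 15.1. Y-linked genes other than Usp9y, which lay below the floor on both knockout arrays, were read on all these arrays, with Eif2s3y, a translation factor subunit, at 1764 in wild type and 1240 in knockout and Uty, a histone demethylase relative, at 392.5 and 343. The list of Y-linked genes and Xist had a median of -0.19 over 6, with Xist the 1 member past 2-fold.

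The 4 genes that repeated on the higher side were Wnt4, Sod3, Slc46a1 and Aplp1. Wnt4, a signal of the gonad and kidney that opposes testis development in the fetus, read 325 in wild type, 1401 in 4-week knockout and 913 in 10-week knockout, with log2 ratios of 2.11 and 1.20. Sod3, the extracellular superoxide dismutase, read 373, 905 and 337. Slc46a1, the proton-coupled folate transporter, read 424, 1059 and 436. Aplp1, a relative of the amyloid precursor protein, read 1207, 2455 and 2298. On the 10-week array Wnt4 and Aplp1 thus lay nearer to the 4-week knockout, and Sod3 and Slc46a1 near wild type.

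**Figure D2:**
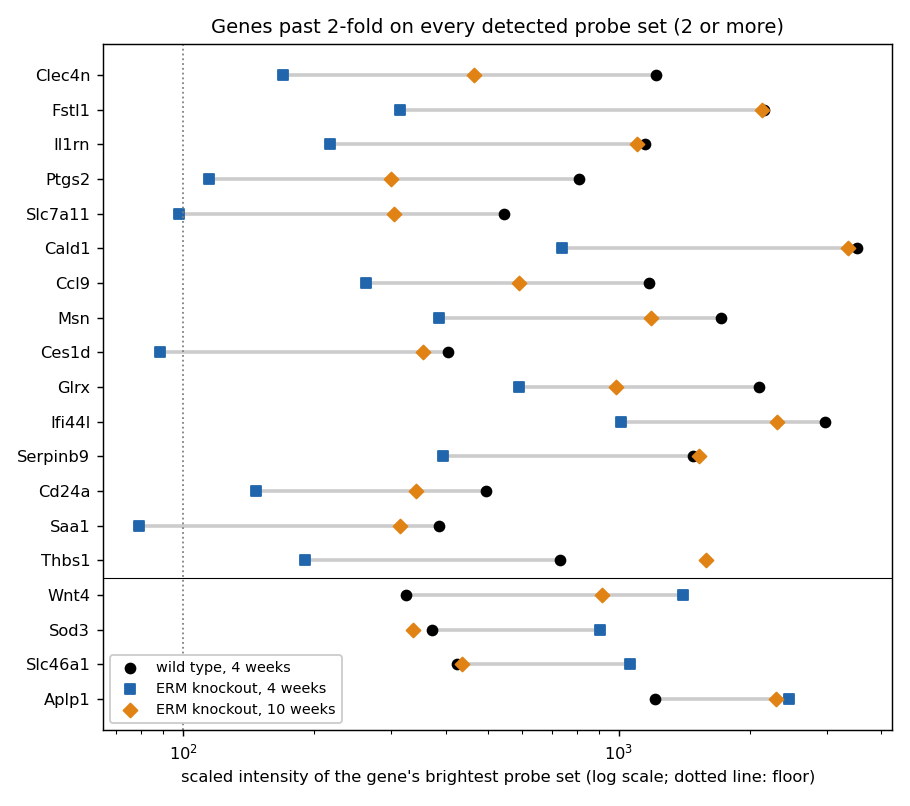
Scaled intensity (log scale) of the brightest probe set of the 15 lowest and all 4 higher genes that passed 2-fold on every detected probe set, on the wild-type (black), 4-week knockout (blue) and 10-week knockout (orange) Sertoli arrays, 1 array each, with grey bars joining the 4-week pair and a dotted line at the floor of 100. Fstl1, Cald1 and Il1rn read near wild type on the 10-week array and several-fold lower on the 4-week knockout array.

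Chemokines, the secreted signals that attract leukocytes, were lower in many members. Of 14 compared CXC chemokines 8 were at least 2-fold lower (57.1%) and none was higher by as much, with a median log2 ratio of -1.41. Of 16 CC and CX3C chemokines 6 were at least 2-fold lower (37.5%) and none higher, with a median of -0.41. Over all genes the shares were 3.18% lower and 0.681% higher. Ccl7, Cxcl5, Cxcl12 and Mmp12 are named because the study is known to concern them, so they are not independent evidence of a direction. The gene lists were chosen with earlier results of these data known, so their counts are not independent evidence either. Cxcl5, Cxcl3 and Cxcl1 attract neutrophils. Cxcl5 read 8235 in wild type, 893 in knockout and 2715 on the 10-week knockout array, 9.22-fold lower at 4 weeks. Cxcl3 read 2377, 181 and 944, 13.1-fold lower. Cxcl1 read 9583, 4222 and 7979, 2.27-fold lower, with -1.38 and, on an _x_at probe set, -1.15 on its others. The low array was the 4-week knockout for each.

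Of the CC and CX3C chemokines 10 lay within 2-fold, among them Ccl12 at a bound of 0.31 and Ccl8 at -0.17 (both named after their values were seen). Ccl7 read 2739 in wild type, 111 in knockout and 574 on the 10-week array, and Ccl2, its neighbour and close relative, 8863, 1141 and 5003. Ccl5, which attracts T cells, read 1406, 385 and 1373. Cxcl10 and Cxcl11, which bind the receptor CXCR3 and are induced by interferon, were 3.11-fold and 3.32-fold lower. Cxcl12, which guides stem cells to their niche, divided by probe set. On its brightest it went from 1256 to below the floor, at least 12.6-fold lower, and on a further one from 1116 to 112, but its remaining probe set read 452 and 586. Pf4, of platelets and macrophages, was 4.18-fold lower. The chemokines that were higher had ratios within 2-fold, as Ccl28, of mucosal epithelium, at 0.57, but those of Ccl1, Ccl12 and Cxcl15 are bounds. The macrophage, fibroblast and 18S values given above differed on the same array, and their part in the chemokine and cytokine results was not tested.

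Among 18 compared inflammatory cytokines 3 were at least 2-fold lower, none was higher by as much, and 15 lay below 0. Il6, a cytokine made by Sertoli cells and macrophages, read 2039 in wild type and 330 in knockout, 6.19-fold lower, and 289 on the 10-week knockout array. Csf3, the granulocyte growth factor, read 765 and 250, 3.06-fold lower. Il1rn is given above. Il1b, the inflammatory interleukin of activated macrophages, read 555 and 371, within 2-fold.

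Of 18 targets and feedback genes of NF-kB, the transcription factor of inflammatory signalling, 4 were at least 2-fold lower and 1 at least 2-fold higher. Vcam1, a leukocyte adhesion molecule, read 2290 in wild type and 944 in knockout, with all 3 probe sets from -1.48 to -1.28, and 3792 on the 10-week array. Icam1, its counterpart for beta2 integrins, read 934, 430 and 2821. Tnfaip3, which removes ubiquitin to end NF-kB signalling, read 1135, 556 and 1960, with -1.03 on both its probe sets. Bcl3, a nuclear partner of NF-kB subunits, was the higher member, at 660 and 1449. The list's median was -0.21 at 4 weeks and 0.49 for the 10-week knockout over the same 4-week wild-type array, where age differs as well as genotype.

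The promoters of the chemokine and cytokine genes are shown because several of these genes stand together in the genome and were lower together. They are the 250 bases before the start of each gene in RefSeq's mouse assembly GRCm38.p6, on the gene's strand. Capitals mark exact matches, on either strand, to the motifs searched: the PEA3 site AGGAAG, the ETS consensus CCGGAAGT, the NF-kB core GGANTTTCC, the interferon response core AANNGAAAC and the AP-1 site TGANTCA. The PEA3 site and the ETS consensus share letters, and AP-1 matches read the same on both strands. Mmp12 and Rsad2 are shown for the matrix protease and the interferon gene described below.
Cxcl1, chr5:90890995-90891244, + strand: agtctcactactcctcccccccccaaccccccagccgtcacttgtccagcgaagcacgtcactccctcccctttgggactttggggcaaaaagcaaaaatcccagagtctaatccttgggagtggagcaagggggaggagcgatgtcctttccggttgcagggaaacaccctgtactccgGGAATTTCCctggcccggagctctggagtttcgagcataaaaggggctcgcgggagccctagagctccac
Cxcl2, chr5:90903649-90903898, + strand: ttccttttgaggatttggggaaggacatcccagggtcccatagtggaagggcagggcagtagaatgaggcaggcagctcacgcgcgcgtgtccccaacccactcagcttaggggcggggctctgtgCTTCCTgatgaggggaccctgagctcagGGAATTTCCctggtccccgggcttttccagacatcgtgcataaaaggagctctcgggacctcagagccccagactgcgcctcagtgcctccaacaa
Cxcl3, chr5:90785851-90786100, + strand: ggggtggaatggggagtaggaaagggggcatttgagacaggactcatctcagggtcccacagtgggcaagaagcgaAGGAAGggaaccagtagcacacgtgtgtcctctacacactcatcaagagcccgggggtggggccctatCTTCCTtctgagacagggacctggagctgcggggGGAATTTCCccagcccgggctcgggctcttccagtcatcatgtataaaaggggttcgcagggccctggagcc
Il6, chr5:30012864-30013113, + strand: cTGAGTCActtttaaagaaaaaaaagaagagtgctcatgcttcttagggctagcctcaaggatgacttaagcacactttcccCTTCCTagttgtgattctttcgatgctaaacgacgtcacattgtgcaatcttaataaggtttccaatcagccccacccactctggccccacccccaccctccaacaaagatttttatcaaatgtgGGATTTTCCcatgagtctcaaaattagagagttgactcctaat
Mmp12, chr9:7344147-7344396, + strand: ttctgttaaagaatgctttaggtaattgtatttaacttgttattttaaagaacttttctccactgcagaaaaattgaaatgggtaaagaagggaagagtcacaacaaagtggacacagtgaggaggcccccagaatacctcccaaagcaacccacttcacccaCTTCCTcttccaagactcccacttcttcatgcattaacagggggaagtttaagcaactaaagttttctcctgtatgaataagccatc
Rsad2, chr12:26456453-26456702, - strand: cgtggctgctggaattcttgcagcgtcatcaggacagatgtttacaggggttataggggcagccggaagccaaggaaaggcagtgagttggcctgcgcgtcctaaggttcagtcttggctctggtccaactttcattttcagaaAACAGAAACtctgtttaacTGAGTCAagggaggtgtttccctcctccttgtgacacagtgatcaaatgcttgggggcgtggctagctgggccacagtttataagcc

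The NF-kB core began 70 bases before the start in Cxcl1, 96 in Cxcl2 and 72 in Cxcl3, each time as GGAATTTCC, and 43 bases before it in Il6, as GGATTTTCC. Cxcl2, Cxcl3, Il6 and Mmp12 also held the PEA3 letters. Rsad2 held the interferon response core, 106 bases before the start, and an AP-1 match. These matches describe letters in a window and do not show that a factor binds there.

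The same windows were scanned for all genes, with 27025 promoters in the table, 12651 of them of measured genes, 378 of lower and 84 of higher genes. The PEA3 letters were in 28.1% of promoters of measured genes and in 29.1% of all promoters, against 30.7% of lower genes (116) and 33.3% of higher genes (28). The ETS consensus was in 4.80% of measured, 2.93% of all, 1.06% of lower (4) and 3.57% of higher genes (3). The NF-kB core was in 1.12% of measured and 1.05% of all promoters, and in 3.17% of those of lower genes, 12 in number. Among the 12 were Il6, Cxcl1, Cxcl2, Cxcl3, Cxcl10, Icam1 and Tnfaip3, and none of the 84 higher genes held it. The interferon response core was in 4.09% of measured, 4.99% of all, 5.03% of lower (19) and 2.38% of higher genes (2). For AP-1 these shares were 5.11%, 6.87%, 7.14% (27) and 4.76% (4). The lower genes include groups of neighbouring paralogs with similar promoters, which are not independent.

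Lower genes also stood next to each other in the genome, in 12 runs, while 0 runs were found on the higher side. Over all genes 3.18% were lower and 0.681% higher, so fewer higher runs are to be met by number alone. How many runs spacing alone would give was not worked out. A run was 3 or more genes past 2-fold the same way within 5 consecutive measured genes along a chromosome. The 12 runs held 43 genes, 8.53% of those lower. Some of these genes have near-identical relatives, and their probe sets can share signal. On chromosome 5 the CXC chemokines Cxcl5, Pf4, Cxcl3, Cxcl1 and Cxcl2, and Ereg, a ligand of the EGF receptor, made 6 of 8 measured genes. On chromosome 11 Ccl2 and Ccl7 formed a run with a gene of clone name. Farther along it, Ccl5, Ccl9, Ccl3, Wfdc17 and Wfdc18 made 5 of 7, where the last 2 encode small secreted proteins with protease-inhibitor folds.

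The other 9 runs held myeloid receptors, protease inhibitors, acute phase genes, interferon genes and genes of no common family. On chromosome 6 lay C3ar1, the receptor of complement C3a, with the lectins Clec4n, Clec4d and Clec4e, while Clec4a2 between them read 320 in wild type and 439 in knockout. On chromosome 19 lay Ms4a4b, Ms4a4d, Ms4a6d and Ms4a2, a family of membrane proteins of immune cells. Chromosome 13 held Serpinb1a, Serpinb6b and Serpinb9, chromosome 7 Saa3, Saa1 and Saa2, and chromosome 1 Ifi207, Ifi204 and Mndal. The remaining runs were Popdc2, Pla1a and Cd80 on chromosome 16, Rundc3b, Abcb1b and Tmem243 on chromosome 5, Ttk, Tent5a and Tpbg on chromosome 9, and Iigp1 with 2 genes of clone names on chromosome 18. Over whole autosomes, lower genes ranged from 1.98% of measured genes to 3.95%.

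**Figure D3:**
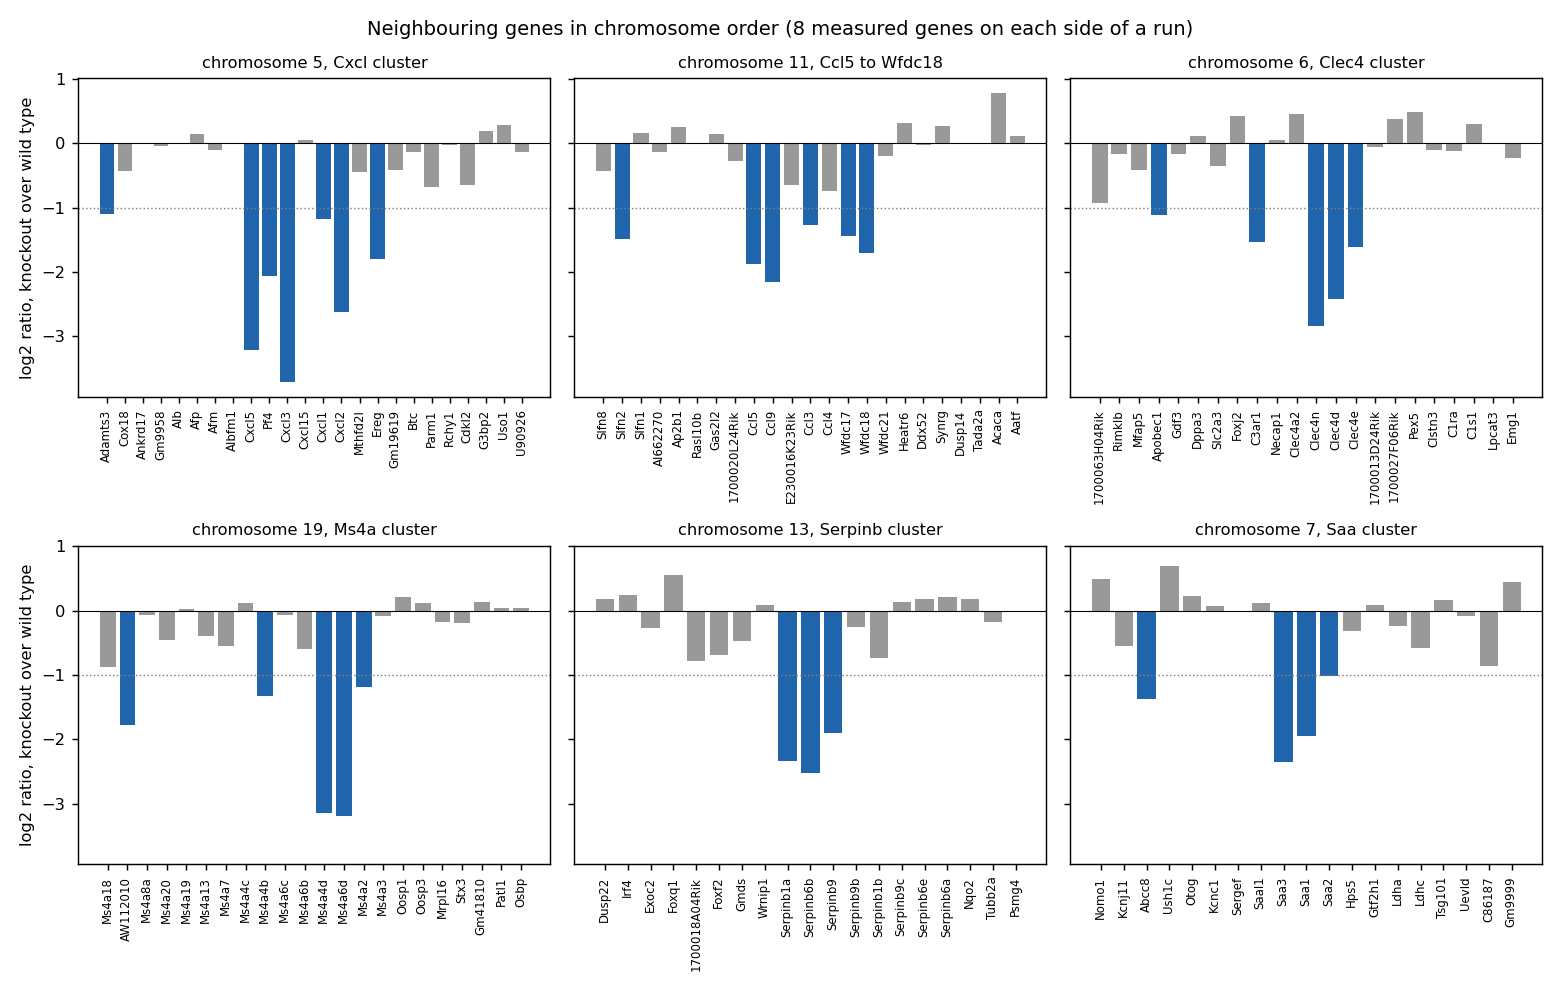
Log2 ratio, ERM knockout over wild type in Sertoli cells at 4 weeks (1 array a group), of measured genes in chromosome order around 6 of the 12 runs, with blue bars for genes at least 2-fold lower and a dotted line at 2-fold. Each panel shows a block of lower genes, such as Cxcl5 to Ereg, with flanking genes mostly within 2-fold.

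Innate recognition and acute phase genes were lower in some members. Of 22 pattern recognition receptors 4 were at least 2-fold lower and none higher, with a median of -0.41. These were Clec7a, the glucan receptor dectin-1, at 1107 in wild type and 142 in knockout, and the Clec4 lectins named above. The Toll-like receptors had ratios within 2-fold, but those of Tlr1 and Tlr7 are bounds, since both lay below the floor in knockout. Tlr4, the endotoxin receptor, read 484 and 289, Tlr2 874 and 557 and Tlr3, the sensor of double-stranded RNA, 467 and 244. Cd14, the co-receptor of Tlr4, read 2049 and 1144.

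Of 14 acute phase genes 5 were at least 2-fold lower and none higher. Saa3, the serum amyloid made outside the liver, read 10199 in wild type, 2002 in knockout and 4062 on the 10-week array, 5.10-fold lower. Ptx3, a pentraxin that binds microbes, read 4268, 771 and 2271, 5.53-fold lower, but its further, dim probe set had a log2 ratio of 0.42. Cp, the copper oxidase ceruloplasmin, lay within 2-fold, at 4891 and 3380, with all its further probe sets also below 0.

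Complement genes had 4 of 16 at least 2-fold lower and none higher, with a median of -0.16. Cfb, factor B of the alternative pathway, read 892 in wild type and 161 in knockout, 5.53-fold lower. C2, its counterpart in the classical pathway, read 1276 and 342, 3.73-fold lower, with -1.30 on its further probe set. C3ar1 was lower on all 3 of its probe sets, at -1.54 on the brightest and at bounds of -1.71 and -1.84 on the others. C1qc, a subunit of the macrophage product C1q, read 307 and 152. Of antigen presentation genes, none of 13 MHC class I genes was past 2-fold (median -0.18) and 1 of 8 class II genes, Ctss, a protease shared with the macrophage list. H2-Aa, a class II chain, read 614 and 546.

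Interferon response genes had a median of -0.47, with 5 of 27 at least 2-fold lower (18.5%), none higher by as much and 22 below 0. Ifit2, which binds viral RNA, read 902 in wild type, 212 in knockout and 901 on the 10-week array, 4.26-fold lower. Rsad2, the antiviral enzyme viperin, read 4227, 1474 and 3848, with its 3 probe sets from -1.90 to -1.52. Igtp, an interferon-inducible GTPase, read 2322, 989 and 3247. The list's median was 0.03 for the 10-week knockout over the same 4-week wild-type array. Of 5 compared genes of the Ifi200 family, nuclear DNA sensors, 3 were at least 2-fold lower, with a median of -1.69. Mndal read 1438 and 133 on a probe set open to cross-hybridisation and had a bound of -1.99 on its other probe set.

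Among plasminogen activation genes and serpins, 6 of 14 were at least 2-fold lower (42.9%) and none higher. Serpinb2, an inhibitor of urokinase in stimulated macrophages and epithelia, read 4491 in wild type, 331 in knockout and 1603 on the 10-week array, 13.6-fold lower. Serpinb6b and Serpinb1a, intracellular protease inhibitors, were 5.73-fold and 5.05-fold lower, the latter with -0.05 on its further probe set. Serpinh1, the collagen chaperone, was 2.21-fold lower. Serpina3n, an acute phase antiprotease, lay on the other side at 2979 and 4252.

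Of 20 matrix metalloproteinases and inhibitors 2 were at least 2-fold lower. Mmp12, the macrophage elastase, read 2681 in wild type, 211 in knockout and 601 on the 10-week array, 12.7-fold lower. Mmp13, a collagenase, went from 356 to below the floor, at least 3.56-fold lower. Mmp11, stromelysin 3, lay opposite at 124 and 246. Lysosomal genes gave 4 of 22 lower with a median of -0.08: Ctss, Ctsc (at least 7.44-fold), Gpnmb (2.93-fold) and Acp5 (2.68-fold), a protease that activates granule enzymes, a glycoprotein and a phosphatase of phagocytes and osteoclasts for the latter 3. As the mean over its probe sets Gpnmb had a log2 ratio of -0.91, short of 2-fold. Hexa, a hexosaminidase subunit, read 1161 and 1756.

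Matrix genes were lower in part. Of 19 collagens and modifying enzymes 4 were at least 2-fold lower, with a median of -0.32. Col3a1, a fibrillar collagen, read 953 in wild type and 359 in knockout, but a bound of -0.10 on its further probe set. Col12a1, which decorates fibrils, read 1035 and 413 and had -1.66 (a bound) and -0.65 on the others, and Loxl1, which cross-links elastin, read 375 and 138. Of 16 laminins and basement membrane genes 2 were lower, Lamb1 at 947 and 208 and Lama4 at 282 and 102, while Lama1 and Lama5 had log2 ratios of 0.76 and 0.55. Lamb1 had further probe sets at -1.74 and at bounds of -0.63 and -0.46.

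Integrins gave 3 of 18 at least 2-fold lower: Itgb2, the leukocyte beta2 chain, from 433 to below the floor, Itga7, a laminin receptor, from 255 to below it, and Itga4, a receptor of Vcam1, from 1199 to 589. The further probe sets of Itga4 went the other way, at 0.19 and 0.54. Junction genes, had a median of 0.19 over 23 compared members, none at least 2-fold lower and 1 at least 2-fold higher. That was Lsr, a protein of tricellular junctions, at 741 and 2243. Jam2, an adhesion molecule of tight junctions, read 3605 and 6032, with all 4 further probe sets above 0, and Cgn, the junction protein cingulin, 1835 and 3015.

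Genes of proliferation lay below wild type with few past 2-fold. DNA replication genes had 25 of 28 below 0, 6 at least 2-fold lower and a median of -0.45. Mcm2, Mcm5 and Mcm6, subunits of the replicative helicase, read 407, 590 and 698 in wild type and 156, 242 and 342 in knockout. The further probe sets of Mcm2 and Mcm5 gave -0.88 and -0.54. Of the genes counted as lower, Mcm5, Mcm6, Cdt1, Ccne1 and Ccne2 fell short of 2-fold under another scaling or probe set rule. Mitosis genes had 22 of 25 below 0, 2 at least 2-fold lower and a median of -0.46. Birc5, the survivin of the chromosomal passenger complex, read 390 and 178, and Cenpa, the centromeric histone, 238 and 107. As the mean over its probe sets Cenpa had a log2 ratio of -0.62. With a floor of 0.4 of the trimmed mean Birc5 had -0.96 and Cenpa -0.25. For the 10-week knockout over the same 4-week wild-type array the medians were -0.52 for replication and -0.62 for mitosis. Dividing germ cells and somatic cells share these genes, and which cells carried them was not tested.

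Of 17 FGF and ERK feedback genes 3 were at least 2-fold lower, 14 lay within 2-fold and none was higher by as much, with a median of -0.37. Spred1 and Spry2, inhibitors of the ERK pathway, read 1354 and 1069 in wild type, 564 and 457 in knockout and 2266 and 986 on the 10-week array. All 5 further probe sets of Spred1 were below 0, from -0.82 to -0.53. Phlda1, a pleckstrin-domain protein, read 1235, 522 and 1417. Dusp6, the phosphatase of ERK, lay within 2-fold at 1546 and 1118.

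Of 20 immediate early genes 4 were at least 2-fold lower. Ccn2, a matricellular target of TGF beta and YAP, read 3020 in wild type, 856 in knockout and 3956 on the 10-week array, 3.53-fold lower. Egr2, a zinc finger factor, read 1515, 629 and 1108, with -1.64 on its further probe set. Junb and Jund, AP-1 subunits, lay above 0 at 0.69 and 0.75. Errfi1, an inhibitor of the EGF receptor that is on none of the lists and passed 2-fold on both its probe sets, read 1791, 637 and 1647 (named after its values were seen).

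ETS factors as a family were centred on 0, with a median of -0.00 over 20 members, 2 at least 2-fold lower and none higher. Ets1, the founding member, read 1642 in wild type and 798 in knockout, with -0.76 to -0.10 on its further probe sets, and 3460 on the 10-week array. Elk3, a repressor of the ternary complex group, went from 253 to below the floor, with 0.07 on the other probe set. Spi1, the PU.1 factor of myeloid cells, read 209 and 150.

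Niche factors and receptors divided, with 2 of 23 at least 2-fold lower, 1 at least 2-fold higher and a median of -0.34. Gdnf was the higher member and Cxcl12 and Fgfr1 the lower, the latter an FGF receptor at 364 and 127 with -0.68 on its further probe set. On the intensities as deposited Gdnf had a log2 ratio of 0.96, and with a floor of 0.4 of the trimmed mean Fgfr1 had -0.86. Kitl, the ligand that differentiating spermatogonia need, read 4732 and 5107 (named after its values were seen). BMP and TGF beta genes gave 3 of 23 lower: Fstl1, Bmp7 and Id3. Bmp7, a BMP ligand, read 921 and 304 but had -0.09 on its further probe set, and Id3, a target of BMP signals, went from 216 to below the floor. Among 17 Wnt genes only Wnt4 was past 2-fold, and the median was 0.09.

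Metabolic and stress lists lay close to 0. Glycolysis (median -0.02 over 18), cholesterol (-0.04 over 18), mitochondrial respiration (0.10 over 23), oxidative stress (0.05 over 21), hypoxia (-0.03 over 15) and chaperone genes (-0.14 over 19) had at most 2 members past 2-fold in either direction. Apoe, the apolipoprotein of cholesterol efflux that macrophages also make, read 1949 in wild type and 276 in knockout, 7.07-fold lower, and 794 on the 10-week array. Srebf1, a driver of lipid synthesis, read 563 and 1244, 2.21-fold higher. Hspa1b and Hspa1a, the inducible heat shock proteins, were 2.27-fold and 2.16-fold lower. Retinoid genes had a median of 0.11 over 17, with Stra8 alone past 2-fold. Ribosomal protein genes had none of 15 past 2-fold and a median of -0.03. Housekeeping genes had a median of -0.26 over 12, with 10 of them below 0. Among these Actb had -1.27 and -0.37 on its 2 probe sets. The 3′ control probe set of Actb read 14781 in wild type and 15925 in knockout.

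The remaining lists were the prostaglandin (median -0.27 over 15), insulin-like growth factor (-0.20 over 13), Hox (-0.19 over 19) and imprinted genes (0.02 over 20). In each, 1 or 2 members were at least 2-fold lower, and no member was past 2-fold in the other direction. Dlk1, an imprinted surface protein of immature cells, read 592 in wild type and 198 in knockout, with -0.49 on its further probe set. Igfbp7, a secreted binding protein, read 2517 and 1215, with 0.38 and a bound of -0.83 on its others. Hoxc5, a homeobox gene of the trunk, read 882 and 292, with 0.76 on its further probe set. Probe sets of the same gene thus divided for several of these members.

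**Figure D4:**
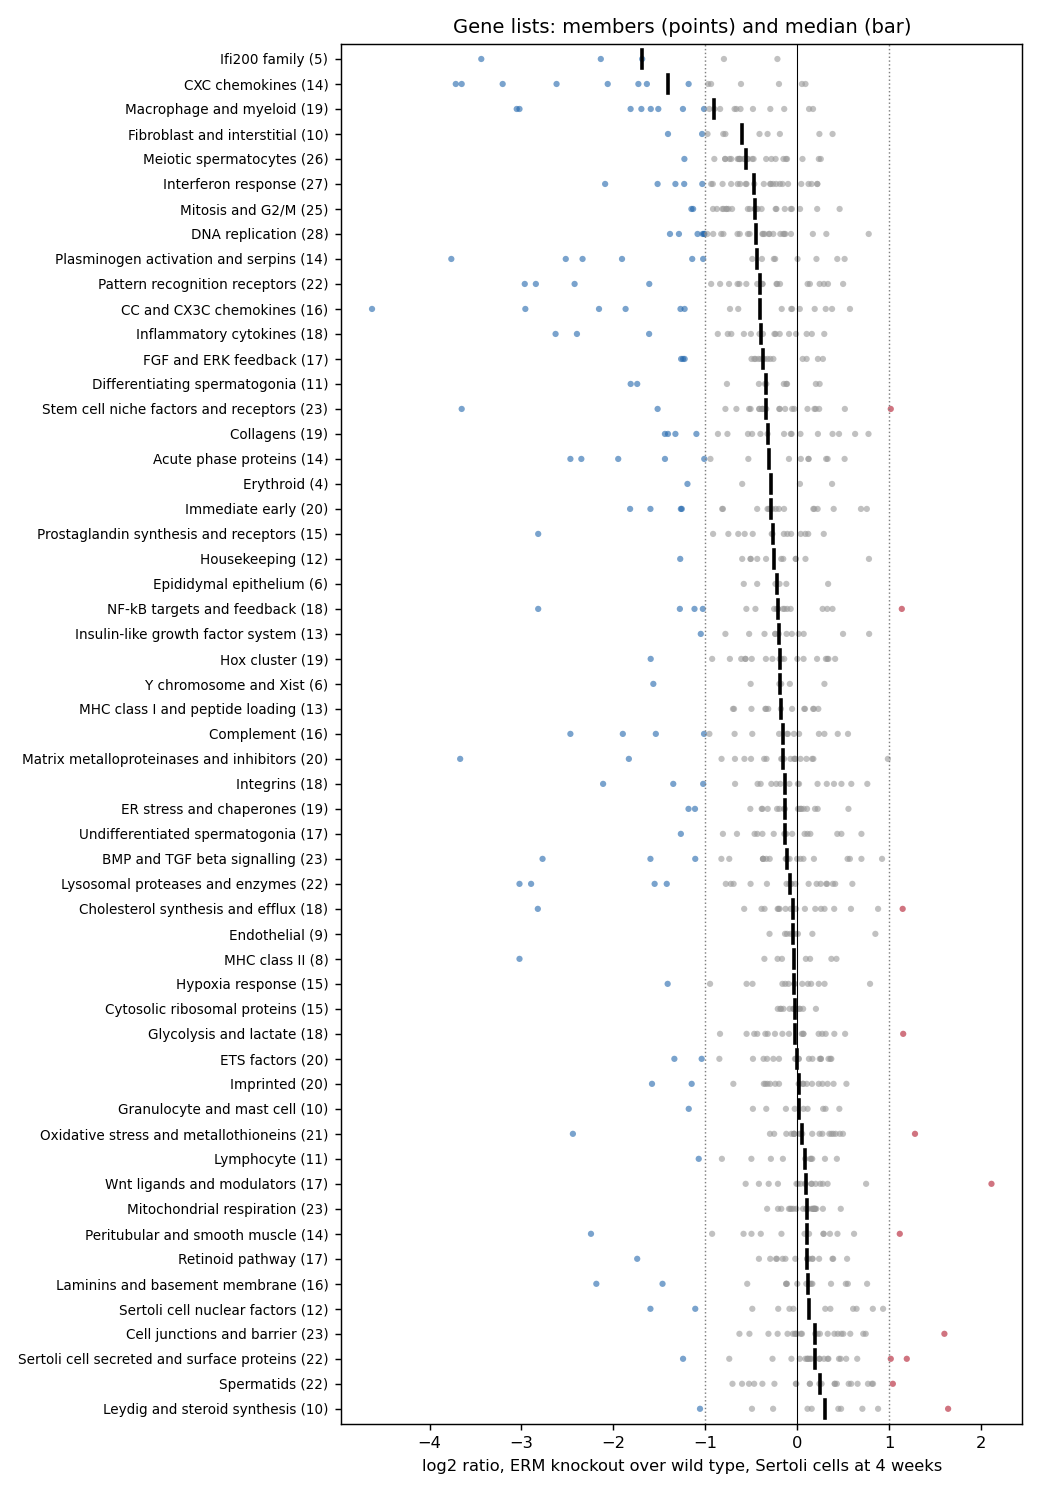
Log2 ratios, ERM knockout over wild type in Sertoli cells at 4 weeks (1 array a group), for the compared members of 55 gene lists, with the number of members in parentheses, black bars at the median, dotted lines at 2-fold, and members past 2-fold in blue (lower) or red (higher). The Ifi200 family, CXC chemokines and macrophage markers have medians of -1.69, -1.41 and -0.90, and the other medians lie between -0.60 and 0.30.

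Whole testis of the same genotypes and age was measured on another array design and shares no array with the Sertoli pair. Of 6907 genes measured in both, 223 were at least 2-fold lower in Sertoli knockout (3.23%) and 50 higher (0.724%), against 62 lower (0.898%) and 40 higher (0.579%) in testis knockout. Those lower in both numbered 5, which is 2.24% of the Sertoli list and 8.06% of the testis list. Stra8 read 867 and 259 in Sertoli cells and 286 and below the floor in testis. Hells, a chromatin remodelling helicase, read 707 and 307 in Sertoli cells and 574 and 115 in testis. The others were Mcm2, Dck, a nucleoside kinase, and Pdpn, the membrane protein podoplanin, all listed in full because they are few. Acss1, a mitochondrial acetyl-CoA synthetase, was the 1 gene higher in both, at 615 and 1232 in Sertoli cells and 231 and 468 in testis.

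The chemokines and matrix metalloproteinases with a ratio in both tables had ratios within 2-fold in testis, that of Ccl9 being a bound. These were only 4 CXC chemokines, 11 CC and CX3C chemokines and 13 metalloproteinases and inhibitors. Cxcl5, Cxcl3, Cxcl2 and Ccl2 had no testis ratio. Ccl7 had a log2 ratio of -4.62 in Sertoli cells and -0.18 in testis, where it read 459 in wild type and 404 in knockout. Mmp12 had -3.67 and -0.18, Saa3 -2.35 and 0.22, Fstl1 -2.77 and 0.15, and Ctss -3.02 and 0.56. Wnt4 had 2.11 and -0.22. The genes lower in Sertoli knockout had a median log2 ratio of 0.04 in testis, beside -0.01 for all genes measured in both. Whether the pairs differ was not tested, since each has 1 array per genotype.

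**Figure D5:**
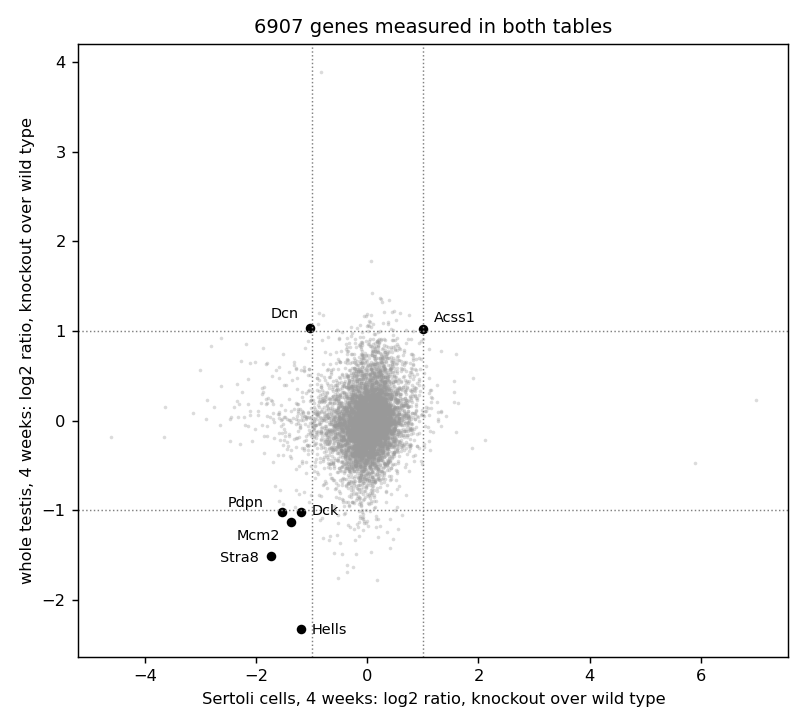
Log2 ratio, ERM knockout over wild type at 4 weeks, of 6907 genes in primary Sertoli cells (horizontal) and whole testis (vertical), 1 array a group in each, with dotted lines at 2-fold and the genes past 2-fold in both in black. Lower in both are Stra8, Hells, Mcm2, Dck and Pdpn, Acss1 is higher in both, and Dcn is lower in Sertoli cells and higher in testis.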

How the data were processed

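RNA from primary Sertoli cells was hybridised to single-colour Affymetrix arrays. The authors deposited linear intensity values per probe set, the lowest exactly 1. Their software and scaling were not given in the sources used here. Each of the 5 arrays of the table was scaled to a trimmed mean of 500 (2nd to 98th percentile), and intensities under 0.2 of it were set to that floor of 100.

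Control probe sets (64), those naming several genes (932) and those naming none (9160) were left out. Gene identifiers of 34741 probe sets matched RefSeq's GRCm38.p6 table. A gene is its brightest probe set over the 5 arrays, compared if at the floor or above on 1 array of the pair. Array number limits the precision, since each group is 1 array.

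Members and the 55 gene lists (15 for cell types, 40 for processes) were chosen with earlier results of these data known. Named genes are Etv5, up to 15 genes a side past 2-fold on every one of 2 or more probe sets, the 6 members of each list with the largest ratios at most, chemokine, cytokine and Sertoli genes past 2-fold, fixed markers, genes in runs, and Ccl7, Cxcl5, Cxcl12 and Mmp12. Named after their values were seen were Vil1, Sox1, Nop14, Ddah1, Kitl, Errfi1, Clec4a2, Tlr1, Tlr2, Tlr4, Tlr7, Cp, Serpina3n, Junb, Jund, Ccl1, Ccl8, Ccl12, Ccl28, Cxcl15, Il1b, Hexa, Hells, Dck, Pdpn and Acss1. The steps were tested on simulated data. Alternatives were other scalings, floors and probe set rules. Python 3.11.15, numpy 2.4.6, pandas 2.3.3 and matplotlib 3.10.9 were used.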

Additional observations from a re-analysis of the deposited data

Results flagged for a closer look

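Dcn, decorin, differed in direction between the pairs. Its log2 ratio was -1.04 in Sertoli cells (6207 in wild type, 3027 in knockout) and 1.03 in whole testis (1262 and 2577). Its further Sertoli probe set had a bound of -0.05, and the difference between the pairs was not tested.

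Control probe sets outside the gene comparison carried a signal on the 4-week knockout array that the wild-type array lacked. The 5′ control for 18S ribosomal RNA read 4551 against 349 in wild type, and the 3′ control for pyruvate carboxylase read 1856 against 514. On the 10-week knockout array they read 352 and 470.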

How the results depend on the processing

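No paired analysis was possible because each group has 1 array. Restricting the count to genes with all of 2 or more probe sets past 2-fold left 35 lower and 4 higher, among 6677 genes. Under the other alternatives lower genes numbered 339 (floor at 0.4 of the trimmed mean) to 657 (floor at 0.1) and higher genes 80 to 154, at the same floors. Quantile normalization gave 435 lower and 117 higher, and the deposited scale 580 and 86. Of 385 list medians under alternatives, 364 kept their sign and 21 turned, 18 of them from within 0.1 of 0. On the deposited scale the Sertoli cell nuclear factors had -0.0. With the floor at 0.4 the undifferentiated spermatogonia had 0.078, the lymphocyte list -0.5 and the Ifi200 family -1.138, and with the floor at 0.1 the Ifi200 family had -1.243. With the mean over probe sets, laminins and basement membrane genes had -0.058. The cause of these moves was not tested. Of 142 named genes past 2-fold none changed direction, 88 stayed past 2-fold throughout and 54 did not in at least 1 alternative, 28 of them with the floor at 0.4 and 25 with the mean over probe sets.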
